A study of Mus musculus with 10 samples.

Results

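The genes described here are 6 insulin-like growth factor (IGF) binding proteins, Igfbp2, Igfbp3, Igfbp4, Igfbp5, Igfbp6 and Igfbp7, together with the ligand gene Igf1 and the receptor gene Igf1r. They were chosen by symbol, and all 8 were found among the 27716 genes that the 8 embryonic mouse pancreas libraries had in common. They were followed in 45590 cells of 4 broad classes (mesothelial-like, mesenchymal-like, endothelial-like and epithelial-like) out of 57982 cells with 200 or more genes detected. On mouse build GRCm38, Igfbp2 (chr1:72824503-72852474, plus strand) and Igfbp5 (chr1:72857932-72874884, minus strand) lie tail to tail with 5457 bases between them. Igfbp3 (chr11:7206086-7213923) lies 3539 bases from Igfbp1, and Igfbp4 (chr11:99041244-99054392) is on the same chromosome. Igfbp6 (chr15:102144362-102149511), Igfbp7 (chr5:77349240-77408041), Igf1 (chr10:87858265-87937042) and Igf1r (chr7:67952827-68233668) stand alone.

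IGF1 and IGF2 are secreted growth factors that act through the receptor tyrosine kinase IGF1R and drive growth of embryonic tissues. The binding proteins IGFBP2 to IGFBP6 hold IGFs in the extracellular space with high affinity and can either withhold them from the receptor or deliver them to it. IGFBP6 prefers IGF2, while IGFBP7 binds IGFs weakly and is better known from blood vessel walls. The mesothelium is the epithelial sheet that covers the pancreas and other organs of the body cavity.

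The study profiled dissociated pancreata by droplet single-cell RNA sequencing at the embryonic stages E12.5, E14.5 and E17.5 (days of gestation), with the pancreata of a library pooled before loading. Swiss Webster pancreata were sequenced with the version 1 kit (1 library each at E12.5 and E17.5 and 2 batches at E14.5) and with the version 2 kit after removal of cells stained for CD140a, the product of Pdgfra (1 library per stage, at E17.5 loaded in 2 technical replicate wells). A further E14.5 library came from Fev-Cre;ROSA26mTmG embryos, in which cells with a history of Fev-Cre activity carry GFP and the others TdTomato, with both fractions sorted and sequenced with the version 2 kit. No group received a treatment. Levels below are CPM, the unique molecular identifiers (UMIs) of a gene in a class of a library scaled to the same total of UMIs in every class and library, and the values of different genes are not compared with one another. Each library came from its own pool, and dissociation was longer at the later stages, so stage and dissociation time cannot be told apart. Of the version 1 libraries, 1 of E14.5 was batch 1 and the others batch 2, collected on another day. The version 2 stages were each processed on a different day, so day and stage cannot be told apart there.

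Each library or well held 15671934 to 127151679 UMIs, and haemoglobin genes took 0.0128% to 60.9% of them. The classes were named from marker genes after clustering with the 8 genes held out. The summed level of the mesothelial markers, among them Wt1 and Upk3b, was 992 to 4892 CPM in the mesothelial-like class against 36.6 to 391 CPM in the mesenchymal-like class. The endothelial markers, among them Pecam1 and Cdh5, summed to 5365 to 12061 CPM in the endothelial-like class and the mesenchymal markers to 819 to 2428 CPM there. Cells that fitted no class made up 2.88% to 26.8% of a library, highest at E17.5 version 1. That library also had the fewest mesothelial-like cells (40), while endothelial-like cells numbered 23 to 222 per library. Pdgfra stood at 18.5 to 31.1 CPM in the version 1 and Fev-Cre libraries and at 0.182 to 1.08 CPM in the version 2 libraries, so the mesenchymal-like class of the latter holds what the sort left. Libraries of the same kit shared no more than 1.79% of their barcodes.

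The promoters of Igfbp2, Igfbp5 and Igfbp6 are shown because these 3 genes were highest in the same class. Each runs from 250 bases before the annotated start to 50 bases after it (RefSeq, GRCm38.p6, where all 8 genes had an entry). These starts differ from the gene coordinates given above, and the Igfbp6 window ends before the Igfbp6 start given there. Capitals mark GC boxes (GGGCGG) and TATA boxes (TATAAA), each searched on both strands.
Igfbp2 (chr1:72824230-72824529, plus strand): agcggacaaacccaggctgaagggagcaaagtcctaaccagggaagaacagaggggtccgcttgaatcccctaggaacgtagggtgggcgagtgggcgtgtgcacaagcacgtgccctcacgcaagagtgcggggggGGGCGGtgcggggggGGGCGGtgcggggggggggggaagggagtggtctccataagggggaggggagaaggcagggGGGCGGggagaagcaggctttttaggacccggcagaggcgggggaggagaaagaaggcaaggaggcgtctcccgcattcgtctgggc
Igfbp5 (chr1:72874816-72875115, minus strand): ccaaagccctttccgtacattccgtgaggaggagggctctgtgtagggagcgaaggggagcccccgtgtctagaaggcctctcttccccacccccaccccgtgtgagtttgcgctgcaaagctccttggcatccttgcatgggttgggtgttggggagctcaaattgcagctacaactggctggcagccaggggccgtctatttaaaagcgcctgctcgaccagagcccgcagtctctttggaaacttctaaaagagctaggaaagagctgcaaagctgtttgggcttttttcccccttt
Igfbp6 (chr15:102143936-102144235, plus strand): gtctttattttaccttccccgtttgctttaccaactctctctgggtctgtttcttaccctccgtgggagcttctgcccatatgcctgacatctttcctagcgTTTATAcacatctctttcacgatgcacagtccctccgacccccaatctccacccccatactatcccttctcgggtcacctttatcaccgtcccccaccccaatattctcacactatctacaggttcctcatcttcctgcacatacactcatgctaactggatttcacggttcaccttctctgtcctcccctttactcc
Igfbp2 held 3 GC boxes and no TATA box at 67.0% G and C. Igfbp5 held neither at 56.3%, and Igfbp6 held 1 TATA box, on the opposite strand, at 49.7%. Of 27025 promoters of this length 35.9% held a GC box and 14.2% a TATA box. A match is a description of these letters only.

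Whether the IGF-binding proteins differ between the tissue layers was asked first. The 8 genes were called in 29 of 48 tests over the 6 pairs of classes, where 25.7% of all tests over all genes were called (adjusted p below 0.05 and at least 2-fold). By pair it was 3 of 8 for mesothelial-like against mesenchymal-like cells (15.6% of all genes), 5 of 8 against endothelial-like (28.0%) and 6 of 8 against epithelial-like cells (26.4%). It was 5 of 8 for mesenchymal-like against endothelial-like cells (24.4%), 6 of 8 against epithelial-like cells (29.0%) and 4 of 8 for endothelial-like against epithelial-like cells (30.7%), with all genes called less often in each pair. Igfbp2, Igfbp5 and Igfbp6 were highest in the mesothelial-like class in 8 of 8 libraries, Igf1 in 7 of 8, and Igfbp7 was highest in the endothelial-like class in 7 of 8.

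Igfbp2 ran from 451 CPM at E12.5 version 1 over a median of 1033 to 1386 CPM at E17.5 version 1 in the mesothelial-like class. In the mesenchymal-like class it ran from 69.2 over 135 to 201 CPM, in the endothelial-like class from 8.51 over 60.7 to 134 CPM, and in the epithelial-like class from 9.70 over 35.5 to 113 CPM. The lowest mesothelial-like library thus lay above the highest library of every other class, and the other 3 classes overlapped. Mesothelial-like cells exceeded mesenchymal-like cells by a log2 fold of 2.84 ± 0.38 (SE, 7.14-fold, edgeR quasi-likelihood test, Benjamini-Hochberg adjusted p = 1.18e-06). Taken library by library the ratio was 2.86 to 15.7. The mesenchymal-like class in turn exceeded the endothelial-like class (log2 fold 1.49 ± 0.46, edgeR adjusted p = 0.00948) and the epithelial-like class (1.76 ± 0.38, adjusted p = 0.000258). The first of these was not called in the version 1 libraries alone, nor in the version 2 and Fev-Cre libraries alone.

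Igfbp5, which binds extracellular matrix as well as IGFs, was also separated without overlap. It ran from 530 CPM at E14.5 version 2 over a median of 973 to 1029 CPM at E12.5 version 2 in the mesothelial-like class and from 39.0 over 134 to 424 CPM in the mesenchymal-like class. The epithelial-like class lay at 20.8 to 122 CPM and the endothelial-like class at 2.50 to 13.2 CPM, the latter on 1 to 23 UMIs per library. The mesothelial-like class was 6.85-fold above the mesenchymal-like class (log2 fold 2.78 ± 0.23, edgeR adjusted p = 4.53e-10), and 2.43-fold to 13.6-fold within single libraries. Here endothelial-like cells were lowest, below epithelial-like cells by 9.01-fold (log2 fold -3.17 ± 0.42, edgeR adjusted p = 4.46e-07). A gap of this kind, with every mesothelial-like library above every library of the other 3 classes, was found for 42 of 6099 genes with a mean of 20 CPM or more (0.689%), Igfbp2 and Igfbp5 among them. No member showed it for the mesenchymal-like class (0.443% of genes), the endothelial-like class (2.79%) or the epithelial-like class (1.64%).

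Igfbp6, by contrast, varied widely among the libraries themselves. In the mesothelial-like class it stood at 9.58 and 12.8 CPM at E12.5, at 74.8 to 117 CPM in the 4 libraries of E14.5, and at 1352 and 1732 CPM at E17.5. In the mesenchymal-like class the 8 libraries ran from 0.544 over a median of 7.80 to 170 CPM, so the ranges of these classes overlapped while the order held in every library. Within libraries mesothelial-like cells were 4.07-fold to 17.6-fold above mesenchymal-like cells (log2 fold 3.38 ± 0.33, edgeR adjusted p = 7.77e-09). Igfbp6 was close to absent elsewhere, at 0 to 4.16 CPM in the epithelial-like class and at 0 UMIs in 5 of 8 endothelial-like libraries. In the largest of those 5, E12.5 version 2, a count of 0 allows up to 1.72 CPM. Folds against the endothelial-like class are not given for Igfbp6 because that class held no more than 2 UMIs in a library.

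**Figure D1:**
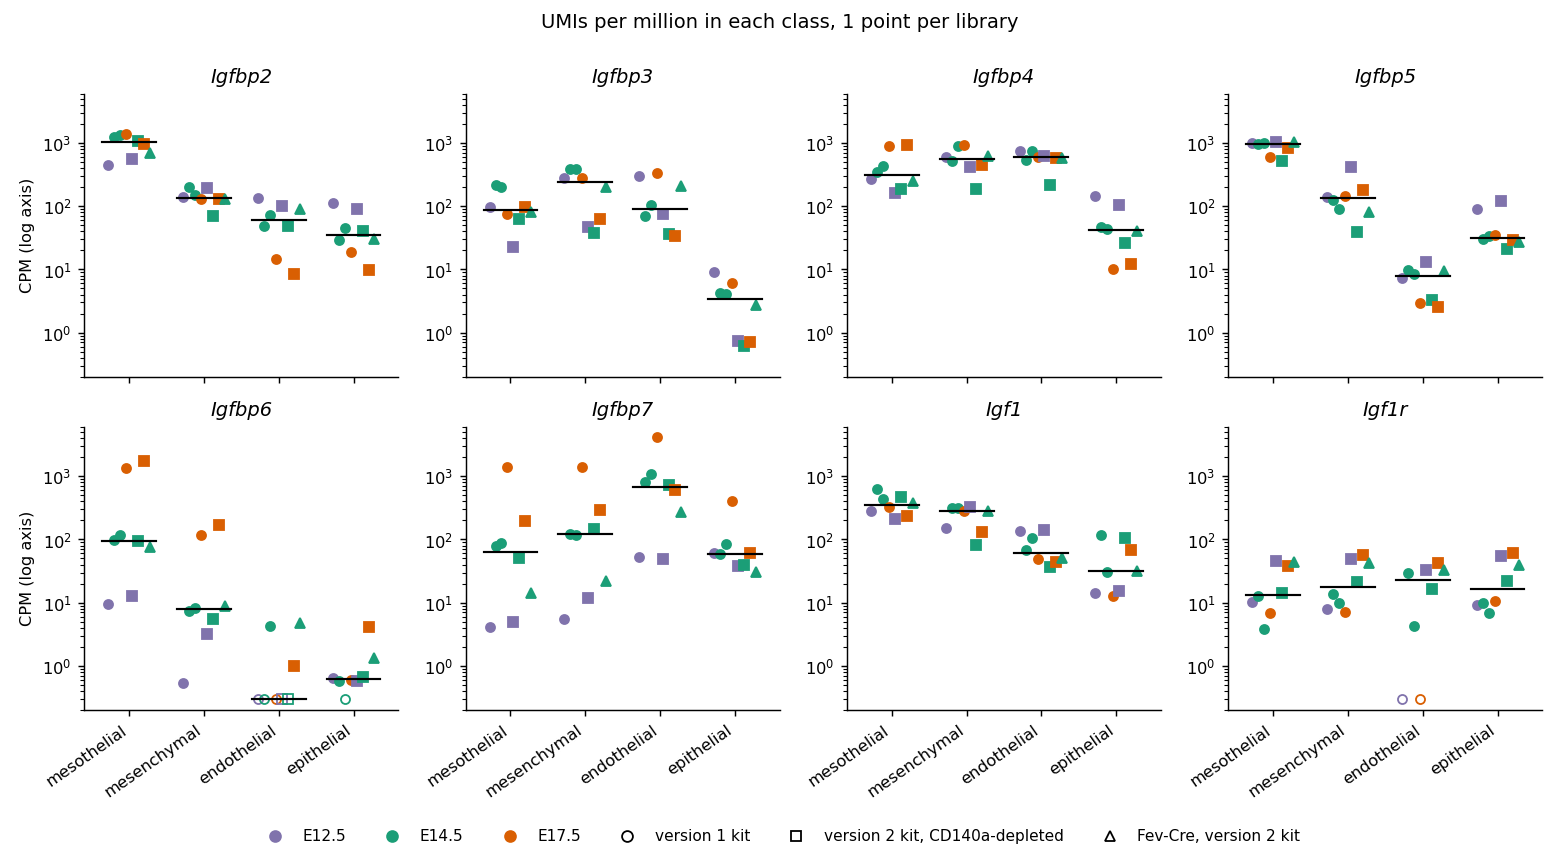
CPM (log axis) of each gene in the 4 classes, with 1 point per library, colour for stage and shape for kit and strain. Lines are medians over 8 libraries, and open symbols just above the lower edge are libraries at 0. Igfbp2, Igfbp5 and Igfbp6 were highest in the mesothelial-like class in 8 of 8 libraries.

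Igfbp3, the main carrier of IGFs in blood plasma, was shared by the 3 non-epithelial classes. It ran from 22.7 over 88.3 to 219 CPM in mesothelial-like cells, from 37.4 over 241 to 383 CPM in mesenchymal-like cells and from 34.1 over 91.0 to 332 CPM in endothelial-like cells. Epithelial-like cells held 0.610 to 9.02 CPM, below every library of the other classes. The distance was 45.6-fold from mesothelial-like cells (log2 fold 5.51 ± 0.40), 69.1-fold from mesenchymal-like cells (6.11 ± 0.40) and 52.7-fold from endothelial-like cells (5.72 ± 0.42), with edgeR adjusted p of 4.65e-12, 4.16e-13 and 8.73e-12. Among the 3 classes themselves no Igfbp3 difference was called, and the 95% interval of mesothelial-like minus mesenchymal-like ran from -1.22 to 0.02 on the log2 scale. Levels were lower with the version 2 kit, at 37.4 to 62.2 CPM in the mesenchymal-like cells that remained after CD140a depletion against 281 to 383 CPM with version 1. Within the Swiss Webster libraries kit and depletion cannot be told apart. The Fev-Cre library, of the version 2 kit but without the depletion, stood at 201 CPM in mesenchymal-like cells. It also differed in strain and sort, and the cause was not tested.

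Igfbp4, cleaved in tissue by the protease PAPPA to release IGF, was likewise shared by the 3 non-epithelial classes. It ran from 160 over 312 to 920 CPM in mesothelial-like cells, from 191 over 566 to 932 CPM in mesenchymal-like cells and from 217 over 595 to 757 CPM in endothelial-like cells, with the 3 ranges overlapping throughout. Epithelial-like cells held 10.2 to 147 CPM, which was lower by 7.65-fold, 10.3-fold and 9.90-fold respectively (log2 folds 2.94 ± 0.43, 3.37 ± 0.43 and 3.31 ± 0.43, edgeR adjusted p = 1.92e-06, 1.31e-07 and 3.59e-07). These folds average over stages. Within libraries mesothelial-like cells stood 1.55-fold to 88.6-fold above epithelial-like cells. At E12.5 version 2 the 2 values were 160 and 103 CPM, and at E17.5 version 1 they were 904 and 10.2 CPM. No difference among the other 3 classes was called, with log2 folds of -0.43 ± 0.39 for mesothelial-like minus mesenchymal-like cells, -0.37 (95% interval -1.17 to 0.42) for mesothelial-like minus endothelial-like cells and 0.06 (-0.72 to 0.83) for mesenchymal-like minus endothelial-like cells. The mesenchymal marker sum of the endothelial-like class given above goes with these values, and its part in the endothelial-like Igfbp3 and Igfbp4 was not tested.

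Igfbp7 was highest in endothelial-like cells in 7 of 8 libraries. It ran there from 49.3 CPM at E12.5 version 2 over a median of 674 to 4163 CPM at E17.5 version 1, against 4.19 to 1406 CPM in mesothelial-like, 5.51 to 1422 CPM in mesenchymal-like and 31.0 to 401 CPM in epithelial-like cells. All 4 ranges overlapped. Within libraries, endothelial-like cells exceeded mesenchymal-like cells in 8 of 8, at least 2.09-fold and with a median of 5.77-fold. The fitted difference was 5.25-fold (log2 fold -2.39 ± 0.49 for mesenchymal-like minus endothelial-like, edgeR adjusted p = 0.000236), and 7.92-fold against mesothelial-like cells (-2.99 ± 0.51, adjusted p = 2.15e-05). Neither was called without the library as a block. Against epithelial-like cells endothelial-like cells were 5.36-fold higher (log2 fold 2.42 ± 0.53, edgeR adjusted p = 0.000354), although at E12.5 version 1 the epithelial-like value was the higher, at 60.6 against 52.1 CPM.

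The ligand gene Igf1 was higher in mesothelial-like and mesenchymal-like cells than in endothelial-like and epithelial-like cells. It ran from 215 over 353 to 622 CPM in mesothelial-like cells, from 81.1 over 283 to 327 CPM in mesenchymal-like cells, from 36.2 over 60.5 to 141 CPM in endothelial-like cells and from 12.6 over 31.6 to 117 CPM in epithelial-like cells. Mesothelial-like and mesenchymal-like libraries overlapped and their difference was not called (log2 fold 0.56, 95% interval -0.20 to 1.32), nor was that between endothelial-like and epithelial-like cells (0.65, -0.28 to 1.59). Mesothelial-like cells exceeded endothelial-like cells 4.56-fold (log2 fold 2.19 ± 0.46, edgeR adjusted p = 0.000295) and epithelial-like cells 7.18-fold (2.84 ± 0.41, adjusted p = 1.42e-06). Mesenchymal-like cells exceeded the same classes 3.10-fold (1.63 ± 0.45, edgeR adjusted p = 0.00451) and 4.87-fold (2.29 ± 0.42, adjusted p = 3.42e-05), the former not in the version 2 and Fev-Cre libraries alone.

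The receptor gene Igf1r was called in none of the 6 pairs of classes. Its level went with the kit, at 0 to 29.7 CPM over the 4 classes in version 1 libraries and 14.1 to 60.7 CPM in version 2 and Fev-Cre libraries. All 4 classes overlapped, with class medians of 13.4 to 23.1 CPM. The largest fitted differences were endothelial-like cells below epithelial-like cells (log2 fold -0.69 ± 0.23, 95% interval -1.14 to -0.24) and mesenchymal-like above endothelial-like cells (0.61 ± 0.23, 0.15 to 1.07). Both had an edgeR adjusted p below the threshold (0.0137 and 0.0362) at less than 2-fold.

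**Figure D2:**
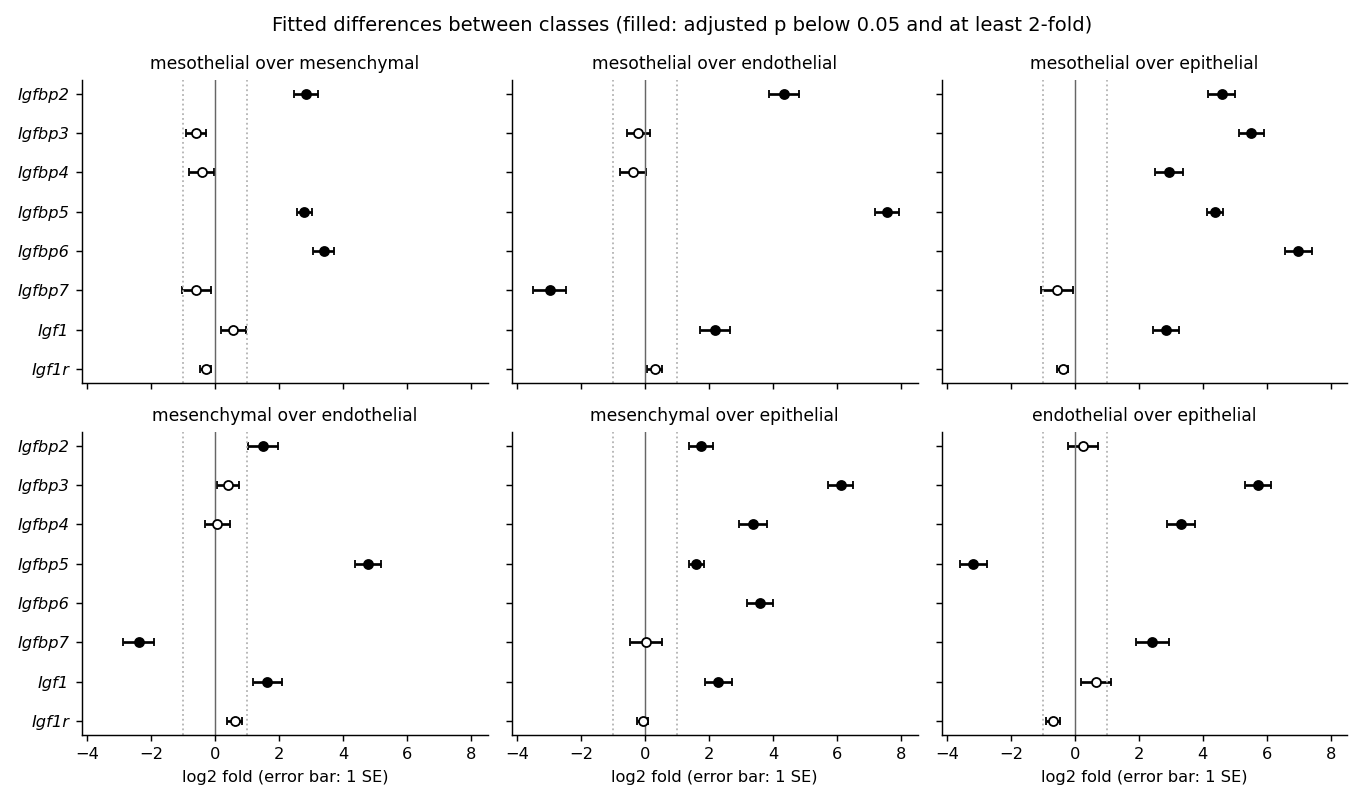
Fitted log2 folds of the 8 genes for each pair of classes over 8 libraries with 1 SE. Filled points were called, dotted lines mark 2-fold, and Igfbp6 is not drawn against the endothelial class, which held no more than 2 UMIs of it in a library. Igfbp2 and Igfbp5 are filled in all 3 mesothelial panels, and Igf1r in none.

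The share of cells with a UMI followed the sums. With every cell thinned to 2000 UMIs, Igfbp2 was found in 51.8% to 78.1% of mesothelial-like cells over the libraries and Igfbp5 in 52.6% to 83.9% (means of 68.9% ± 9.74 and 73.6% ± 11.3, SD, n = 8). Without thinning these means were 88.7% and 92.1%. Igfbp6 had a UMI in 1.49% and 2.31% of mesothelial-like cells at E12.5 and in 86.8% and 89.0% at E17.5. In erythroid-like cells thinned to the same depth, which served as background, no member reached 4.71% of cells in any library, and Igfbp2, Igfbp5 and Igfbp6 reached no more than 1.41%. Haemoglobin genes took 62.9% to 90.0% of the UMIs of these cells. That left fewer UMIs for other genes, so this background is low in part for that reason. Between 2 and 26 mesothelial-like cells per version 1 library were left out as too shallow.

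The 3 mesothelial genes also met in single cells. Cells with a UMI of all 3 made up 0.298% and 1.01% of mesothelial-like cells at E12.5, 6.13% to 12.1% at E14.5 and 44.7% and 42.5% at E17.5 (2000 UMIs per cell). These shares were not set against those that the detection of each gene alone would give. No epithelial-like or endothelial-like cell in any library carried all 3, and mesenchymal-like cells did so at 0% to 1.01%. Igfbp6 was close to absent in the epithelial-like and endothelial-like classes, so hardly any such cell could be found there. Conversely, no more than 7.82% of mesothelial-like cells carried none of the 3 in any library, against 65.5% to 91.8% of epithelial-like cells. The 3 genes were grouped for being highest in mesothelial-like cells, so these differences between classes repeat the levels above and are no separate evidence.

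Mesothelial-like cells were not uniform. The E17.5 version 2 library had 6 mesothelial-like clusters of 69 or more cells, and smaller ones were left out. Over these 6, Igfbp2 spanned 543 to 1464 CPM, Igfbp3 16.8 to 196 CPM and Igfbp5 533 to 1227 CPM. Igfbp6 spanned only 1418 to 1880 CPM there. At E12.5 version 2, 8 clusters ran from 287 to 921 CPM for Igfbp2 and from 7.21 to 20.5 CPM for Igfbp6. The cluster of highest Igfbp2 was the lowest in Igfbp5, at 763 CPM. These clusters come from single pools and were not tested.

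Within the epithelium and the mesenchyme the members parted again. Over 3 contrasts between subclasses 10 of 24 tests were called, against 15.6% over all genes. Acinar-like against ductal-like cells gave 5 of 8 (1517 of 12135 genes) and endocrine-like against ductal-like cells 3 of 8 (31.7%), the latter near its background. Igf1 was highest in acinar-like cells, the future enzyme-secreting cells, in 8 of 8 libraries. It ran there from 20.9 CPM at E12.5 version 2 to 231 CPM at E17.5 version 2, while ductal-like cells held 5.27 to 23.1 CPM and endocrine-like cells 1.95 to 20.3 CPM. Only the E12.5 version 2 acinar-like value lay within the ductal-like range. Acinar-like cells exceeded ductal-like cells 13.6-fold (log2 fold 3.77 ± 0.53, edgeR adjusted p = 2.05e-07), and 3.97-fold to 23.2-fold in each of 7 libraries with enough UMIs for a ratio.

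Ductal-like cells, by contrast, were highest of the 3 epithelial subclasses in Igf1r, Igfbp4, Igfbp5 and Igfbp7 in 8 of 8 libraries each. Igf1r stood at 12.1 to 28.1 CPM in the version 1 libraries and 43.6 to 102 CPM in the others in ductal-like cells, a median of 3.22-fold above acinar-like cells and higher in 6 of 6 libraries and 1.93-fold to 5.59-fold above endocrine-like cells in 7 of 7. Both differences were called (acinar minus ductal -1.29 ± 0.24, edgeR adjusted p = 2.24e-05, endocrine minus ductal -1.33 ± 0.24, adjusted p = 3.61e-06), and neither was called without the library as a block. The receptor and the ligand were highest in different epithelial subclasses of the same libraries.

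Igfbp5 ran from 49.2 to 269 CPM in ductal-like cells, against 0 to 98.3 CPM in acinar-like and 14.6 to 66.1 CPM in endocrine-like cells. It was lower in acinar-like cells (log2 fold -1.57 ± 0.32, edgeR adjusted p = 0.000107) and in endocrine-like cells (-1.80 ± 0.32, adjusted p = 3.64e-06), as was Igfbp4 in endocrine-like cells (-1.70 ± 0.45, adjusted p = 0.00098). For Igfbp4 no difference between acinar-like and ductal-like cells was called (log2 fold -0.07, 95% interval -0.89 to 0.75). Igfbp7 was lower in acinar-like than in ductal-like cells (-1.36 ± 0.54, edgeR adjusted p = 0.0473), a call that was lost in 9 of 20 alternatives. Igfbp6 was called higher in acinar-like cells (log2 fold 2.18), but at 0 to 6.26 CPM there. It stood at 2.18 CPM in erythroid-like cells at E17.5 version 2, where haemoglobin genes took 85.2% of UMIs. That call was lost in 3 of 20 alternatives. Its ratio over ductal-like cells was 1.34 and 1.75 in the 2 libraries with enough UMIs.

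**Figure D3:**
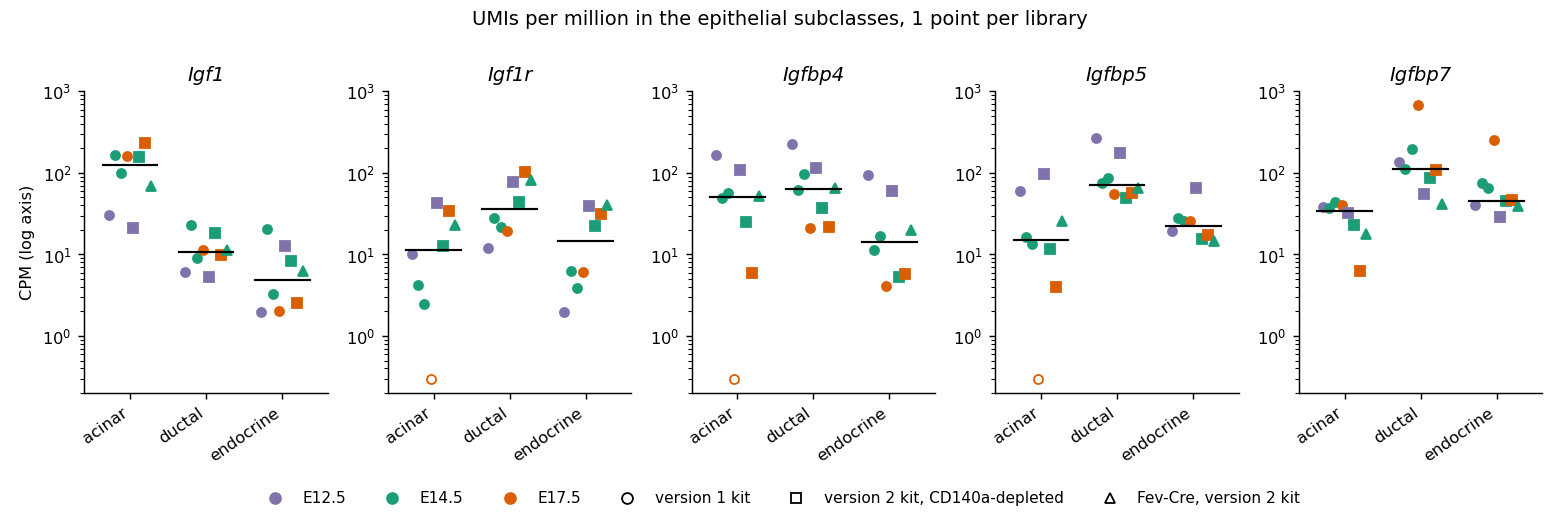
CPM (log axis) of 5 members in acinar-like, ductal-like and endocrine-like cells, 1 point per library, with medians as lines and open symbols near the lower edge for libraries at 0. Igf1 was highest in acinar-like cells and Igf1r, Igfbp4, Igfbp5 and Igfbp7 in ductal-like cells, each in 8 of 8 libraries.

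In the mesenchyme, cells with vascular smooth muscle and pericyte markers (VSM-like) were compared with the other mesenchymal-like cells, and 2 of 8 members were called against 2.66% of all genes. Igfbp3 was lower in VSM-like cells (log2 fold -1.53 ± 0.33, edgeR adjusted p = 0.00286), at 11.5 to 360 CPM against 39.9 to 413 CPM, and was the lower in 6 of 7 libraries. This call was lost in 2 of 20 alternatives, without the library as a block and in the version 1 libraries alone. Igfbp6 was lower as well (-1.72 ± 0.45, edgeR adjusted p = 0.0182), but this call was lost in 7 of 20 alternatives and the log2 fold was -0.19 with the finer clustering. It rests on 0 to 2 UMIs in VSM-like cells in 5 of 7 libraries, and at E12.5 version 1 VSM-like cells stood higher (1.25 against 0.458 CPM). Igfbp7 was higher in VSM-like cells in 7 of 7 libraries, 1.47-fold to 28.4-fold, although its fitted difference was not called (1.24 ± 0.53, edgeR adjusted p = 0.198).

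The second question was how the members move between E12.5 and E17.5, in the 7 Swiss Webster libraries with kit as a covariate. The 8 genes were called in 21 of 56 tests, against 5.70% over all genes. In mesothelial-like cells 5 of 8 members were called at E14.5 (4.71% of all genes) and 5 of 8 at E17.5 (18.2%), all of them higher than at E12.5. In mesenchymal-like cells it was 1 of 8 at E14.5 (1.22%) and 2 of 8 at E17.5 (10.0%), in endothelial-like cells 1 of 5 (0.496%) and 3 of 5 (3.35%), and in epithelial-like cells 1 of 7 (0.171%) and 3 of 7 (4.18%), these last 4 in epithelial-like cells all lower.

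Igfbp6 rose in mesothelial-like cells. From 9.58 and 12.8 CPM at E12.5 it went to 93.1 to 117 CPM in the 3 Swiss Webster libraries of E14.5 and to 1352 and 1732 CPM at E17.5, without overlap of stages in either kit. The log2 fold was 3.22 ± 0.32 at E14.5 (edgeR adjusted p = 2.71e-05) and 7.12 ± 0.37 at E17.5 (139-fold, adjusted p = 1.07e-08). It was called under all 18 alternatives, at 6.88 to 7.38. In mesenchymal-like cells Igfbp6 went from 0.544 and 3.16 CPM to 119 and 170 CPM (log2 fold 6.63 ± 0.57, edgeR adjusted p = 0.000268). This fold was 5.74 without E12.5 version 1 and 8.09 without E12.5 version 2, and was called in both. The summed mesothelial markers stood at 95.7 and 391 CPM in the mesenchymal-like class at E17.5, in the order of these libraries, and at 82.4 and 237 CPM at E12.5. Their part in the mesenchymal value was not tested.

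Igfbp4 and Igfbp2 rose in mesothelial-like cells as well. Igfbp4 went from 271 and 160 CPM at E12.5 (version 1 and version 2) to 904 and 920 CPM at E17.5, without overlap (log2 fold 2.23 ± 0.32, edgeR adjusted p = 0.000125). Igfbp2 went from 451 and 563 CPM to 1386 and 983 CPM (1.24 ± 0.30, edgeR adjusted p = 0.00761), and had already reached 1084 to 1320 CPM at E14.5 (1.25 ± 0.28, adjusted p = 0.0162). Each of these Igfbp2 calls was lost in 5 of 18 alternatives, among them leaving out E17.5 version 1 (log2 fold 1.11 at E17.5, edgeR adjusted p = 0.110). For mesothelial Igfbp5 no change was called (95% interval of E17.5 minus E12.5 from -1.06 to 0.23). Igf1 was higher at E14.5, at 441 to 622 CPM against 280 and 215 CPM (1.03 ± 0.26, edgeR adjusted p = 0.0283, lost in 8 of 18 alternatives). At E17.5 it stood at 326 and 234 CPM, and no change from E12.5 was called. The mesothelial Igfbp3 call at E17.5 (1.37 ± 0.41, edgeR adjusted p = 0.0258) came from the version 2 kit, in which it went from 22.7 to 97.3 CPM. In the version 1 kit it went from 95.8 to 74.7 CPM, and the fold was -0.26 in those libraries alone and -0.23 without the E17.5 version 2 library. This call was lost in 5 of 18 alternatives. Mesothelial Igfbp3 was also called at E14.5 (log2 fold 1.35), which was lost in 3 of 18 alternatives. With a library left out that fold ran from 0.914 to 2.01.

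In epithelial-like cells 3 of 7 members tested were called lower at E17.5 and none higher. Epithelial-like Igfbp4 stood at 147 and 103 CPM at E12.5, at 25.8 to 46.9 CPM at E14.5 and at 10.2 and 12.2 CPM at E17.5, with no overlap of stages (E17.5 log2 fold -3.24 ± 0.34, edgeR adjusted p = 0.00189). Igfbp2 went from 113 and 90.6 CPM to 18.6 and 9.70 CPM (-2.85 ± 0.38, edgeR adjusted p = 0.00471), and Igfbp5 from 92.2 and 122 CPM to 35.4 and 29.1 CPM (-1.66 ± 0.31, adjusted p = 0.0198). The Igfbp5 decrease was already called at E14.5 (-1.93 ± 0.28, edgeR adjusted p = 0.0395), each Igfbp5 call being lost in 5 of 18 alternatives. The Igfbp2 call was lost without either version 2 library of these stages (edgeR adjusted p = 0.0725 without E12.5 and 0.0716 without E17.5), and the Igfbp2 and Igfbp4 calls in the version 1 libraries alone. Over all 18 alternatives the log2 folds ranged from -3.22 to -2.37 for Igfbp2 and from -3.83 to -2.85 for Igfbp4. Fits without a library can leave 1 library in a stage, which is then assumed to vary like the other stages. Within the version 2 kit Igfbp2 stood at 89.5 and 8.93 CPM in acinar-like cells and at 79.9 and 7.54 CPM in ductal-like cells at E12.5 and E17.5, and was 10.1-fold lower at E17.5 in endocrine-like cells. In endocrine-like cells of version 1 Igfbp2 stood at 107 and 29.6 CPM. Endocrine-like Igfbp5 stood at 19.5 and 25.5 CPM in version 1 and at 66.1 and 17.2 CPM in version 2. Acinar-like Igf1 was the higher at E17.5, at 30.2 and 163 CPM in version 1 and at 20.9 and 231 CPM in version 2, and was not tested by stage in that subclass. The part of the makeup of the epithelial-like class in these changes was not tested. Endothelial-like Igfbp2 fell too, from 134 and 100 CPM to 14.6 and 8.51 CPM (-3.39 ± 0.41, edgeR adjusted p = 9.21e-05, called under all 18 alternatives). The E17.5 values rest on 5 UMIs in version 1 and 17 UMIs in version 2, of which 3 were in the first well and 14 in the second. Endothelial-like Igf1 was called lower (-1.57 ± 0.36, edgeR adjusted p = 0.0201), which was lost in 7 of 18 alternatives and rests at E17.5 version 2 on 23 UMIs in the first well and 65 in the second.

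**Figure D4:**
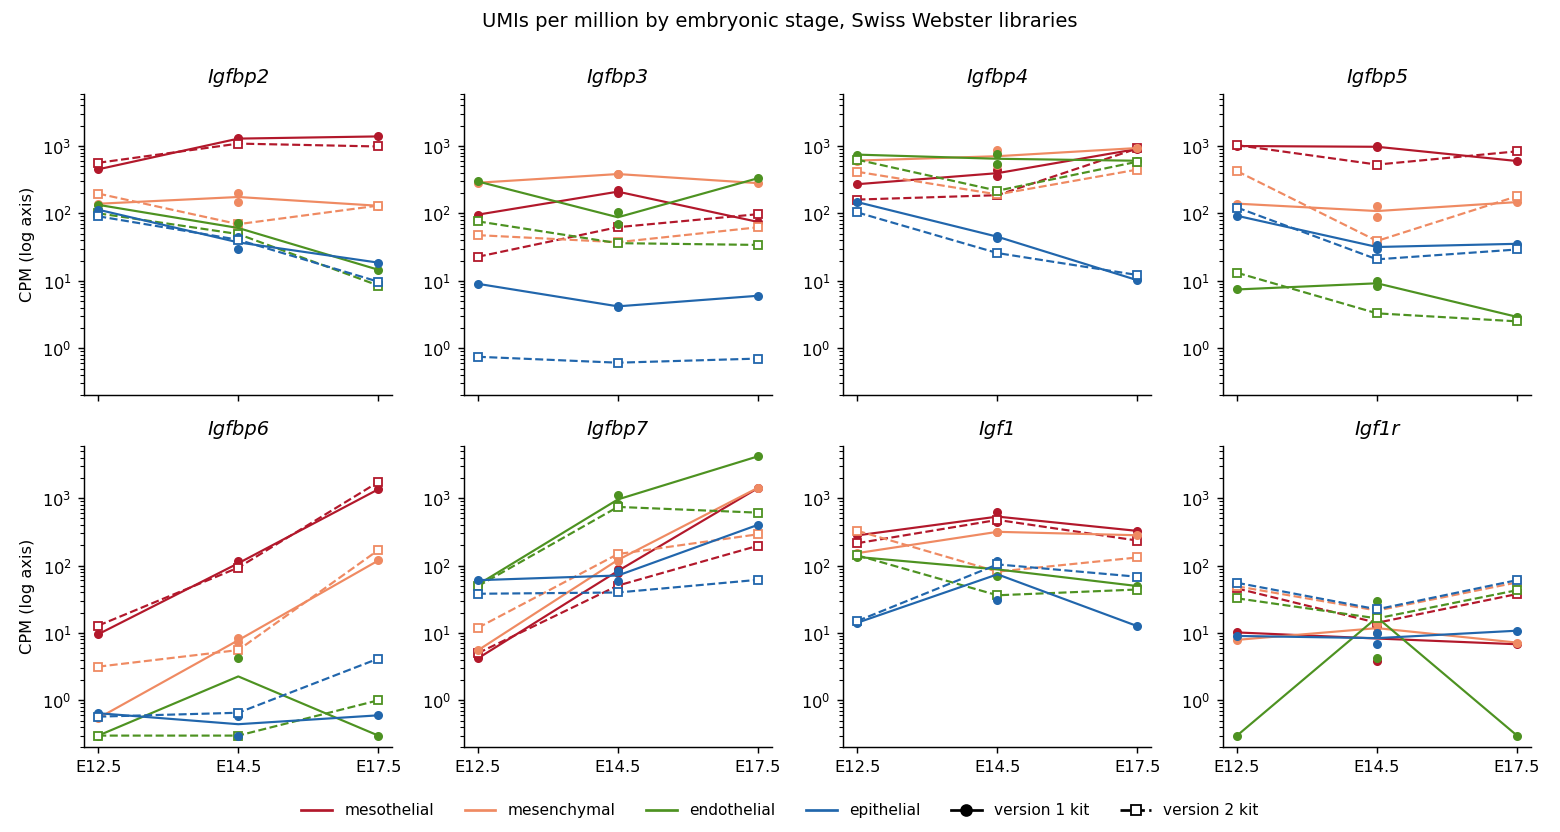
CPM (log axis) by embryonic day in the 7 Swiss Webster libraries, with lines through the stage means of each class and kit (solid version 1, dashed version 2). Points just above the lower edge are libraries at 0. Mesothelial Igfbp6 climbs from 9.58 and 12.8 CPM to 1352 and 1732 CPM, while epithelial Igfbp4 falls from 147 and 103 CPM to 10.2 and 12.2 CPM.

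Igfbp7 was higher at E17.5 than at E12.5 in 3 classes, and E17.5 was not tested against E14.5. In the order E12.5 version 1, E12.5 version 2, E17.5 version 1 and E17.5 version 2 it stood at 4.19, 5.00, 1406 and 196 CPM in mesothelial-like cells, at 5.51, 11.9, 1422 and 291 CPM in mesenchymal-like cells and at 52.1, 49.3, 4163 and 609 CPM in endothelial-like cells. Both E17.5 libraries lay above both E12.5 libraries, with log2 folds of 6.66 ± 0.56, 6.78 ± 0.87 and 4.99 ± 0.59 (edgeR adjusted p = 6.28e-07, 0.00163 and 8.65e-05). Calls were made at E14.5 also (3.40 ± 0.49, 3.86 ± 0.73 and 3.67 ± 0.54, edgeR adjusted p = 0.000633, 0.0444 and 0.00274), the mesenchymal one being lost in 8 and the endothelial one in 3 of 18 alternatives. With a library left out these E14.5 log2 folds ranged from 2.75 to 4.65, from 3.05 to 4.84 and from 2.85 to 4.56, lowest without E14.5 version 2 in the mesothelial-like and endothelial-like class and without E12.5 version 1 in the mesenchymal-like class, and highest without E12.5 version 2 in all 3. Epithelial-like Igfbp7 was not called at E17.5 (1.92 ± 0.49, edgeR adjusted p = 0.0665). Its log2 fold was 2.25 with the second version 2 well alone, where it was called. It was 0.88 without E17.5 version 1 and 2.79 without E17.5 version 2. In version 2 Igfbp7 went from 31.9 CPM at E12.5 to 6.26 CPM at E17.5 in acinar-like cells. It went from 55.1 to 110 CPM in ductal-like and from 28.9 to 47.1 CPM in endocrine-like cells. In version 1 the latter 2 went from 136 to 676 CPM and from 40.9 to 256 CPM. Subclass changes were not tested.

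The E17.5 libraries did not give 1 level of Igfbp7. The version 1 library stood above all others in each of the 4 classes, and the wells of the version 2 library differed although they were technical replicates. Igfbp7 went from 48.0 CPM in the first well to 357 CPM in the second in mesothelial-like cells, from 75.1 to 518 CPM in mesenchymal-like cells, from 152 to 1106 CPM in endothelial-like cells and from 17.9 to 109 CPM in epithelial-like cells. The first of these values, 48.0 CPM, lay below the 78.5 CPM in mesothelial-like cells of E14.5 version 1 batch 1. The ratios of the second to the first well were 7.43 (95% interval 6.66 to 8.31, counting error only), 6.90, 7.28 and 6.08. Igfbp2 showed the same on a smaller scale, with 646 against 1348 CPM in mesothelial-like cells (ratio 2.09, 2.02 to 2.16), 76.9 against 187 CPM in mesenchymal-like and 5.59 against 14.2 CPM in epithelial-like cells. In mesothelial-like cells Igfbp4, Igfbp5, Igfbp6, Igf1 and Igf1r differed by 0.968 to 1.08 between the same wells. In mesenchymal-like cells the ratio was 0.665 for Igfbp6 (0.571 to 0.774), 0.676 for Igfbp5 and 0.711 for Igfbp3, and in endothelial-like cells it was 3.08 for Igf1 (1.89 to 5.19).

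The share of all genes that differed between the wells varied with the class. In mesothelial-like cells 66 of 5383 genes with 20 CPM or more and over 3 UMIs in each well differed over 2-fold (1.23%), all 66 higher in the second well, and 4 by as much as Igfbp7, which is itself counted. In epithelial-like cells it was 27 of 4979 genes (0.542%), with 1 as large as Igfbp7, namely Igfbp7 itself. Mesenchymal-like cells had 92 of 5467 genes (1.68%), with 10 as large as Igfbp7, and endothelial-like cells 156 of 5418 (2.88%), with 7 as large. The cause was not tested. With the first well alone the E17.5 difference of Igfbp7 was still called, at 64.1-fold (edgeR adjusted p = 0.000247), 84.5-fold (0.0152) and 21.9-fold (0.0106) in the mesothelial-like, mesenchymal-like and endothelial-like class, but the E14.5 calls in the last 2 were lost. Without the E17.5 version 1 library the log2 folds were 5.64, 4.87 and 3.70, and without the E17.5 version 2 library 7.88, 8.03 and 6.28, all called. The mesothelial Igfbp2 call at E17.5 was lost with the first well alone (0.96, edgeR adjusted p = 0.0608). The comparisons by well were added after the data had been seen.

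**Figure D5:**
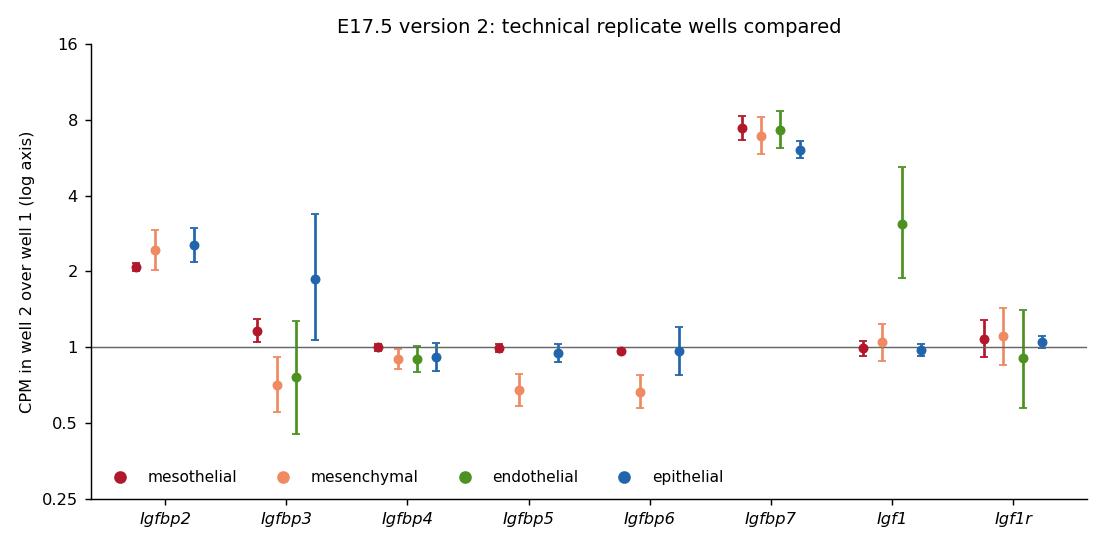
Ratio of CPM in the second to the first well of the E17.5 version 2 library (log axis) with 95% intervals for counting error, by class. Ratios resting on too few UMIs are left out. Igfbp7 lies between 6.08 and 7.43 and Igfbp2 between 2.09 and 2.54, while the other members lie between 0.968 and 1.17 in mesothelial-like cells and between 0.665 and 3.08 in the other classes.

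Whether stage changes differ between classes was tested as an interaction, each class against the mesenchymal-like class at E17.5 minus E12.5. Of 24 tests 5 were called, against 2.76% over all genes, and all 5 had the lower value outside the mesenchyme. Relative to mesenchymal-like cells the epithelial-like change was lower for Igfbp2 (-2.62 ± 0.43, edgeR adjusted p = 0.000829), Igfbp4 (-3.75 ± 0.46, adjusted p = 5.73e-05), Igfbp6 (-3.46 ± 0.64, adjusted p = 0.0024) and Igfbp7 (-4.53 ± 0.41, adjusted p = 1.87e-06), 4 of 8 members against 5.23% of all genes. The epithelial-like side of Igfbp6 was near the floor, with 1 UMI at each of these stages in version 1. In version 2 it stood at 0.573 and 4.16 CPM, beside 2.18 CPM in erythroid-like cells at E17.5, where haemoglobin genes took 85.2% of UMIs. The endothelial-like change was also lower for Igfbp2 (-3.17 ± 0.55, edgeR adjusted p = 0.00424), 1 of 8 against 0.996%. No member was called for its stage change between mesothelial-like and mesenchymal-like cells (2.05% of all genes were), Igfbp4 coming nearest (1.64 ± 0.43, edgeR adjusted p = 0.0538, unadjusted p = 0.00118), and 2 of the 8 had an unadjusted p under 0.05.

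Of 17 other genes of the IGF axis, 41 of 84 tests between classes (25.7% over all genes), 13 of 48 between subclasses (15.6%), 15 of 100 between stages (5.70%) and 3 of 48 interactions (2.76%) were called. Igf2, the main embryonic IGF, was highest in mesenchymal-like cells in 7 of 8 libraries, at 321 to 1845 CPM against 12.6 to 221 CPM in epithelial-like cells (log2 fold 3.24 ± 0.36, edgeR adjusted p = 1.38e-08). Igf2r, which removes IGF2 from the cell surface, was highest there in 8 of 8 and exceeded mesothelial-like cells (mesothelial minus mesenchymal -1.31 ± 0.15, adjusted p = 6.89e-08). Insr, the insulin receptor, was called in no pair of classes. Pappa, the protease of Igfbp4, was higher in mesothelial-like than in mesenchymal-like cells (2.78 ± 0.36, edgeR adjusted p = 4.52e-06), as was Stc2, an inhibitor of PAPPA (2.46 ± 0.46, adjusted p = 0.000122). At E17.5 the largest called folds in mesothelial-like cells were those of Htra1, a secreted protease (4.10 ± 0.30, edgeR adjusted p = 2.01e-07), and Pappa2 (4.06 ± 0.97, adjusted p = 0.00738). Stc2 (3.22 ± 0.55, edgeR adjusted p = 0.000543) and Pappa (2.56 ± 0.41, adjusted p = 0.000336) rose there as well. In mesenchymal-like cells Pappa (3.97 ± 0.72, edgeR adjusted p = 0.00878), Stc1 (1.93 ± 0.34, adjusted p = 0.00774) and Htra1 (1.89 ± 0.48, adjusted p = 0.0374) rose at E17.5. The epithelial-like stage change of Igf2 was lower than the mesenchymal-like one (-4.12 ± 0.34, edgeR adjusted p = 6.82e-07). Igfbp1 was not followed further, with 287 UMIs in the 4 classes together.

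Genes of most similar pattern were sought over 55 sums of subclass and library among 6136 genes with a mean of 20 CPM or more, by Pearson correlation of log2(CPM + 1). The sums share libraries and depth, so the values are descriptions. Igfbp2 was nearest to Wt1 (0.851), which was itself used to name the mesothelial-like class, then Rspo1 and Tmem151a. Igfbp6 was nearest to Dmkn (0.894), followed by Upk3b, also used to name the mesothelial-like class, and S100a6, and Igfbp5 to Tmem98 (0.858), Fras1 and Amer1. Igfbp3 was nearest to Gypc (0.915), Mmp2 and Hoxa5, and Igfbp4 to Fkbp10 (0.931), Ccdc102a and Igf2. Igf1 was nearest to Zfp503 (0.805), Copz2 and Zyx, and Igf1r to Rbm3 (0.811), Atp5g2 and Gm8186. Igfbp7 was nearest to Junb (0.807), Ppp1r15a and Ifngr1, with Junb highest at E17.5 version 1 in all 4 classes as well (761 to 2855 CPM). None of those 3 shared the difference between wells, at ratios of 0.751 to 1.12.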

How the data were processed

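The authors deposited UMI counts per gene and cell made with Cell Ranger 1.1 and 2.1 on mm10, per the submitters' processing notes. From these counts, barcodes with 200 or more genes were clustered per library (scanpy 1.11.5, leidenalg 0.10.2, 20 principal components, 2000 variable genes, resolution 1) with the 8 genes held out, and clusters were named from fixed marker lists. Cells with markers of a second compartment (1.02% to 8.88% of a library) were left out as doublets. The wells of E17.5 version 2 were summed, and of the Fev-Cre library only the matrix with reporter was used, since the other held 7888 of the same barcodes. UMIs were summed per library and class of 20 or more cells and tested over all genes by edgeR 4.0.16 quasi-likelihood with TMM scaling and Benjamini-Hochberg adjustment. Calls needed an adjusted p below 0.05 and 2-fold. Class fits held the library as a block and stage fits the kit. Classes of the same library deviated together (mean r 0.428 over 48 pairs, lowest 0.143), the pairing coming from the shared suspension. Libraries are pools and were not labelled as separate animals, so p-values measure the spread between libraries. With the library as a block, this is the spread of class differences between libraries. Each stage fit had 3 residual degrees of freedom. Intervals on single libraries cover counting error only.

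Alternatives were DESeq2 1.42.0, no TMM, no filter on low counts, other clustering and class settings, single kits, no block or kit term, and each library left out. On simulated data 69% of 2-fold and 96% of 4-fold changes between mesothelial-like and mesenchymal-like cells were recovered (11643 genes), 2% and 57% between stages in mesenchymal-like cells (11581 genes), and 3% and 40% of the differences in stage change between mesothelial-like and mesenchymal-like cells (13382 genes). The members, the gene lists and the rule for named genes (the 8 members, Igf2, Igf2r and Insr, the 2 called IGF axis genes of largest fold in a contrast, and the 3 genes of most similar pattern) were chosen with earlier results of these data known. The IGF axis genes are not named for every contrast, and some are named beyond the 2 of largest fold. The leading genes of the clusters are not reported here.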

Additional observations from a re-analysis of the deposited data

Results flagged for a closer look

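Over 32 groups of 8 libraries (a gene in a class), a single library stood far from the others in 7, where chance gives about 1 in 20 groups of alike libraries. These groups mix stages and kits, and 4 of the 7 are the same gene in the same library, so that share is no measure of what these groups would give. Igfbp7 was highest at E17.5 version 1 in all 4 classes, at 1406 CPM in mesothelial-like, 1422 CPM in mesenchymal-like, 4163 CPM in endothelial-like and 401 CPM in epithelial-like cells. Igfbp4 was lowest at E14.5 version 2 in endothelial-like cells (217 CPM). Igfbp5 was highest at E12.5 version 2 in mesenchymal-like cells (424 CPM), where the mesothelial markers summed to 237 CPM. At E17.5 version 2 they summed to 391 CPM in that class with Igfbp5 at 180 CPM. Such sums are not alike between stages. Upk3b, 1 of these markers, stood at 292 to 498 CPM in the mesothelial-like clusters of E12.5 version 2. It stood at 1404 to 2485 CPM in those listed for E17.5 version 2. The part of mesothelial-like cells in the mesenchymal-like Igfbp5 was not tested. Igfbp6 was highest at E17.5 version 2 in epithelial-like cells (4.16 CPM).

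The change from E12.5 to E17.5 differed from that of mesenchymal-like cells, by the interaction test in edgeR, for Igfbp2 in endothelial-like cells (log2 difference -3.17) and in epithelial-like cells for Igfbp2 (-2.62), Igfbp4 (-3.75), Igfbp6 (-3.46) and Igfbp7 (-4.53). The calls of Igfbp4 and Igfbp7 held in all 17 alternatives. Those of endothelial-like Igfbp2 and of Igfbp6 were lost in 3 each and that of epithelial-like Igfbp2 in 1. With a library left out, the difference of Igfbp6 reached -5.81 (without E17.5 version 2), that of Igfbp4 ran from -4.66 (without E17.5 version 2) to -2.99 (without E17.5 version 1) and that of Igfbp7 from -5.44 (without E12.5 version 2) to -3.75 (without E12.5 version 1). The causes were not tested.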

How the results depend on the processing

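Of single values, 747 of 805 kept their direction and call under other settings, which include the libraries of 1 kit alone, and 450 of 494 with a single library left out. Only mesothelial Igfbp3 at E17.5 reversed, to -0.26 in version 1 libraries and -0.23 without E17.5 version 2. Without the replicate block, which pairs the classes of a library, calls of members numbered 27 between classes (29 with it) and 4 between subclasses (10 with it), while all genes had 17489 (18513) and 4992 (5683).

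In version 1 libraries alone members had 6 calls between subclasses and 3 (of 5) in the interaction. All genes then had 3735 calls between subclasses (5683 with every library), 2801 between stages (4806) and 332 in the interaction (1131). With no filter on low counts members had 8 calls in the interaction, and all genes 28009 between classes (18513), 8959 between subclasses, 7849 between stages and 1624 in the interaction. With the kit left out members had 11 calls between stages (21) and all genes 2227. The cause was not tested.

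With a library left out, members had 29 calls between classes each time, 8 to 11 between subclasses, 13 (without E12.5 version 2) to 26 between stages and 3 (without E17.5 version 2) to 7 in the interaction. All genes had 17662 to 18808, 5186 to 6034, 1918 to 7500 and 389 to 1217. For stages these were 7500 without E14.5 version 1 batch 1, 2002 without E12.5 version 2 and 1918 without E17.5 version 2. For the interaction they were 646 without E12.5 version 1, 389 without E12.5 version 2 and 428 without E17.5 version 2. Without TMM the median of all genes shifted by up to 0.368 on the log2 scale (acinar minus ductal). Endothelial-like cells (23 to 222 per library) and 40 mesothelial-like cells at E17.5 version 1 limit the depth.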

Other observations

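Outside the 4 classes, Igfbp4 was present in immune-like cells at 32.6 to 557 CPM (median 308) and Igf1 at 4.66 to 211 CPM, while Igfbp2 reached no more than 13.7 CPM there. Neural-like cells, named from neural crest, glial and neuronal markers, held Igfbp2 at 19.1 to 200 CPM. The lowest value came from 21 cells at E17.5 version 1, where a count of 0 allows up to 57.3 CPM. Igfbp7 in neural-like cells ran from 5.58 CPM at E12.5 version 2 to 2309 CPM at E17.5 version 1, the library that was also highest in the 4 classes. These values were not tested.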
